A study of Homo sapiens with 4 samples.

Results

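The 10 genes described here code for proteins of the opening steps of glucose use: 2 glucose transporters (SLC2A1 and SLC2A3), 3 hexokinases (HK1, HK2 and HK3), 2 phosphofructokinases (PFKL and PFKP) and 3 bifunctional PFKFB enzymes (PFKFB2, PFKFB3 and PFKFB4). They were picked by symbol, through the Entrez gene number of each probe set, and all 10 were found among the 24241 named genes on the array, each with 1 probe set. MOLM-14, a human acute myeloid leukemia line with an internal tandem duplication in FLT3 and a KMT2A fusion, was profiled on 4 arrays. The rapamycin group holds 2 arrays of cells given 10 nM rapamycin over 24 hours, and the control group holds 2 arrays of cells without it. For all 4 samples the protocols in the labels also name an inducible hairpin, scrambled or against PIM2, and 200 ng/ml doxycycline over 72 hours. The design and the agent labels do not mention either, so whether these cultures carried a hairpin or saw doxycycline is unknown. A single cell line was used. The arrays are called biological replicates, and nothing says that they came from separate cultures, so each p-value reflects only how these arrays vary, in which technical variation may have a share.

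Glucose enters blood cells through facilitative transporters. Hexokinase traps it as glucose 6-phosphate, and phosphofructokinase commits fructose 6-phosphate to glycolysis. The PFKFB enzymes make and break fructose 2,6-bisphosphate, a strong activator of phosphofructokinase, and their isoforms differ in how far they favour making or breaking it. Rapamycin, bound to FKBP12, blocks mTORC1, a kinase complex through which nutrients and growth factors drive biosynthesis. SLC2A1, HK2, PFKFB3 and PFKFB4 are among the textbook targets of the hypoxia factor HIF1, whose translation mTORC1 promotes. This naming is not complete, and it does not mean that the other members are not targets.

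In rapamycin-treated cells 1 transporter, 1 hexokinase and 1 PFKFB enzyme fell: SLC2A1 by 1.49-fold, HK2 by 1.61-fold and PFKFB4 by 1.66-fold, relative to control cells. The other 5 tested members, SLC2A3, HK1, PFKL, PFKP and PFKFB3, did not pass the test, and 0 members rose. HK3 and PFKFB2 had a mean signal below the low-signal filter and were not tested. The count of 3 lower among 8 tested members stands beside 0.861% of all 14635 genes called lower, and the count of 0 higher beside 0.417% called higher. The members were chosen with earlier results of these data known, so these shares are a description and not a test of the group. The members' median log2 fold change was -0.24, against 0.01 over all genes tested. A gene was called when its p-value from a limma fit across all genes, adjusted by the Benjamini-Hochberg method, was under 0.05. In 6 of the 8 tested members both rapamycin arrays lay below both control arrays, a pattern found in 21.8% of all genes tested. The opposite pattern, both rapamycin arrays above both control arrays, was found in 0 of the 8 and in 24.9% of all genes tested.

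The promoters of the 3 genes that fell are shown, with the core motif of HIF1 marked. PFKFB3, also named above as a HIF1 target, did not pass the test and is not printed. Whether HIF1 had a part in these changes was not tested. The windows run from 250 bases before to 50 bases after a gene start in RefSeq (GRCh38.p14), are written 5′ to 3′ on the gene's strand, and have HK2 with 2 annotated starts. Capitals mark ACGTG and GCGTG, the cores of the HIF1 motif, on either strand, where they read CACGT and CACGC on the printed one.
SLC2A1, chr1:42958819-42959118, minus strand: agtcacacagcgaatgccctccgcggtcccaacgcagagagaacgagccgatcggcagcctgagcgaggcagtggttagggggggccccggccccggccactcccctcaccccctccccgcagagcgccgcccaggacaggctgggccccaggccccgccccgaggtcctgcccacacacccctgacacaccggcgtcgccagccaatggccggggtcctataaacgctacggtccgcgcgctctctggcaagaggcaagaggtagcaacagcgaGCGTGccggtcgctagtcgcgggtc
HK2, upstream start, chr2:74833877-74834176, plus strand: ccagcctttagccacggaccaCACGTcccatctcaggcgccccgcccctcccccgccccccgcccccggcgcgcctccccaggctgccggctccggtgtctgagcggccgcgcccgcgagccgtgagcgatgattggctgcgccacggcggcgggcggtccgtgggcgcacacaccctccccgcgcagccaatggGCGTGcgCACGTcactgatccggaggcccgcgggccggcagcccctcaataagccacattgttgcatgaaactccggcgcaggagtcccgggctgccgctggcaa
HK2, downstream start, chr2:74834920-74835219, plus strand: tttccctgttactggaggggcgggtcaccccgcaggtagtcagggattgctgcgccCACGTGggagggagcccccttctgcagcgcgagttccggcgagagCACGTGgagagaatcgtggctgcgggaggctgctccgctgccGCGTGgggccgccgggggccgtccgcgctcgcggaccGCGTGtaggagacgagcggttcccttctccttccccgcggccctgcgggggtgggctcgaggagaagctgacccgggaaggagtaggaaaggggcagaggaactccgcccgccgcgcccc
PFKFB4, chr3:48556754-48557053, minus strand: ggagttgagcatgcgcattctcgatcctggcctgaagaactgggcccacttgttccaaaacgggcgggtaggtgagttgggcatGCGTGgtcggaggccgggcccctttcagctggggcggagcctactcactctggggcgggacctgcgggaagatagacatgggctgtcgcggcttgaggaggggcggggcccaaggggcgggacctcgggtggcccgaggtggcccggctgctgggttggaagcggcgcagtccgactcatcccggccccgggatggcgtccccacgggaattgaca

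SLC2A1 has a single core, at position 26 counted from the start base as 1, and PFKFB4 a single core at -166. The upstream HK2 window holds 3 cores, at -229, -55 and -48. The downstream HK2 window holds the palindrome CACGTG, the E-box bound by MYC and MondoA partners, at -194 and -149, and 2 further GCGTG cores. Each CACGTG also contains ACGTG on both strands. Of 35116 promoter windows in the RefSeq table, 48.4% hold ACGTG or GCGTG, 21.4% hold ACGTG, 36.5% hold GCGTG and 7.26% hold CACGTG. Windows were found for 8 of the 10 members, 19 windows in all. Of these windows 11 (57.9%) hold ACGTG or GCGTG, beside the 48.4% of all windows. This comparison was not matched for GC content, and some members have several windows. The median GC content of all windows was 58.7%, and member windows ran from 46.7% (HK1) to 79.7% (PFKP). The printed windows have 71.0% (SLC2A1), 74.3% and 71.7% (HK2) and 68.0% (PFKFB4). PFKL, PFKP, PFKFB3 and HK1, which did not pass the test, also have a core in at least 1 window. CACGTG was found in HK2 and in 1 of the 2 PFKFB3 windows. The letters are a description of these windows, and binding was not measured.

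The glucose transporters are both carriers with high affinity for glucose: SLC2A1 (GLUT1) is the widespread form, and SLC2A3 (GLUT3) is typical of neurons and white blood cells. SLC2A1 read 8.86 and 8.67 log2 units on the rapamycin arrays, against 9.28 and 9.41 on the control arrays. The groups did not overlap, and the gap between them exceeded the spread within either. The log2 fold change, rapamycin minus control, was -0.58 with a standard error (SE) of 0.09 (limma, adjusted p = 0.024). SLC2A3 read 9.75 and 9.55 log2 units with rapamycin, against 9.92 and 10.01 in control cells. Again both rapamycin arrays lay below both control arrays, but the difference did not pass the test (log2 fold change -0.31, SE 0.09, adjusted p = 0.128, 95% interval from -0.51 to -0.12). The unadjusted p-value of SLC2A3 was 0.00538. SLC2A14 is a near copy of SLC2A3 that can share its probes. Its own probe set lay below the filter, at 3.68 and 4.06 log2 units with rapamycin and 4.89 and 3.62 in control cells.

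**Figure D1:**
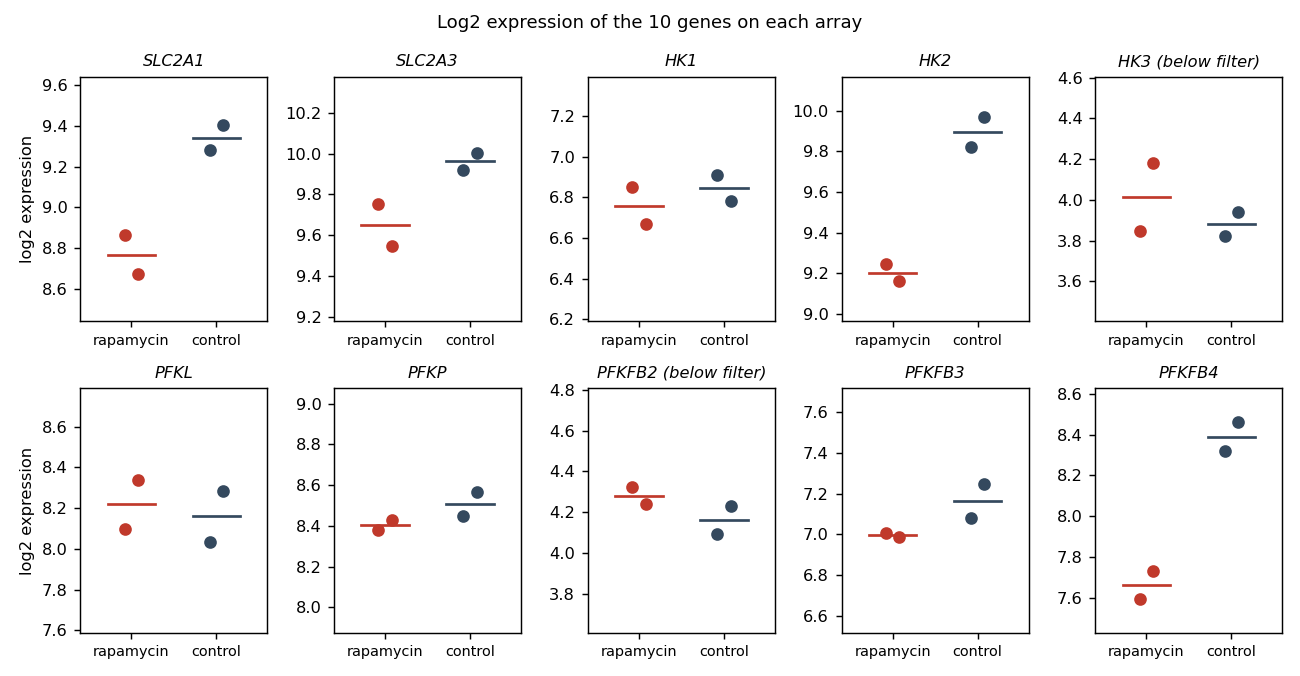
Log2 expression of each member on each array: rapamycin arrays at the left of each panel, control arrays at the right, with a line at each group mean (n = 2 each). All panels span the same log2 range, so gaps compare across panels but heights do not. SLC2A1, HK2 and PFKFB4 have the wide gaps, and the points of HK1, PFKL and HK3 overlap between groups.

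Among the hexokinases, HK2 is the inducible form that docks on mitochondria and is raised in many tumours. HK1 is the constitutive form, and HK3 is expressed in myeloid cells. HK2 read 9.25 and 9.16 log2 units with rapamycin, against 9.82 and 9.97 in control cells. The gap between the groups was several times the spread within either. The log2 fold change was -0.69 (SE 0.08, adjusted p = 0.00703), with a 95% interval from 1.42-fold to 1.83-fold lower. HK1 read 6.85 and 6.67 log2 units with rapamycin and 6.91 and 6.78 in control cells, so the groups overlapped. Its log2 fold change was -0.09 (SE 0.12, adjusted p = 0.783), and the 95% interval from -0.35 to 0.18 lies wholly above the estimate for HK2. HK3 read 3.85 and 4.18 log2 units with rapamycin and 3.82 and 3.94 in control cells, under the filter minimum of 4.86 on every array. A fit without the filter gave HK3 a change of 0.13 (log2 scale, SE 0.15, adjusted p = 0.821).

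Phosphofructokinase is a tetramer, and PFKL (liver type) and PFKP (platelet type) are the subunit genes considered here. PFKL read 8.10 and 8.34 log2 units with rapamycin and 8.03 and 8.28 in control cells. The spread within each group was larger than the difference between them (log2 fold change 0.06, SE 0.12, adjusted p = 0.865). PFKP read 8.38 and 8.43 log2 units with rapamycin and 8.45 and 8.57 in control cells. Both rapamycin arrays lay below both control arrays by a narrow margin (log2 fold change -0.10, SE 0.09, adjusted p = 0.628). The 95% intervals allow PFKL a change between -0.20 and 0.32 and PFKP a change between -0.30 and 0.09, so a moderate fall of PFKP was not excluded.

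PFKFB4 and PFKFB3 are isoforms induced by hypoxia, PFKFB3 being the one with the strongest bias towards making fructose 2,6-bisphosphate. PFKFB2 is best known from heart, where phosphorylation by insulin signalling activates it. PFKFB4 read 7.59 and 7.73 log2 units with rapamycin, against 8.32 and 8.46 in control cells. The groups were clearly apart (log2 fold change -0.73, SE 0.10, adjusted p = 0.0113). Its fall and that of HK2 differ by less than their standard errors, and without rapamycin replicate 1 PFKFB4 stood at -0.66, HK2 at -0.73 and SLC2A1 at -0.67. PFKFB3 read 7.01 and 6.99 log2 units with rapamycin and 7.08 and 7.25 in control cells. The rapamycin values sat just below the lower control value, and the difference did not pass (log2 fold change -0.17, SE 0.11, adjusted p = 0.504, 95% interval from -0.41 to 0.08). PFKFB2 read 4.32 and 4.24 log2 units with rapamycin and 4.09 and 4.23 in control cells, below the filter on every array. Its rapamycin values were the higher ones by a narrow margin, with a log2 fold change of 0.12 in a fit without the filter (SE 0.14, adjusted p = 0.816).

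**Figure D2:**
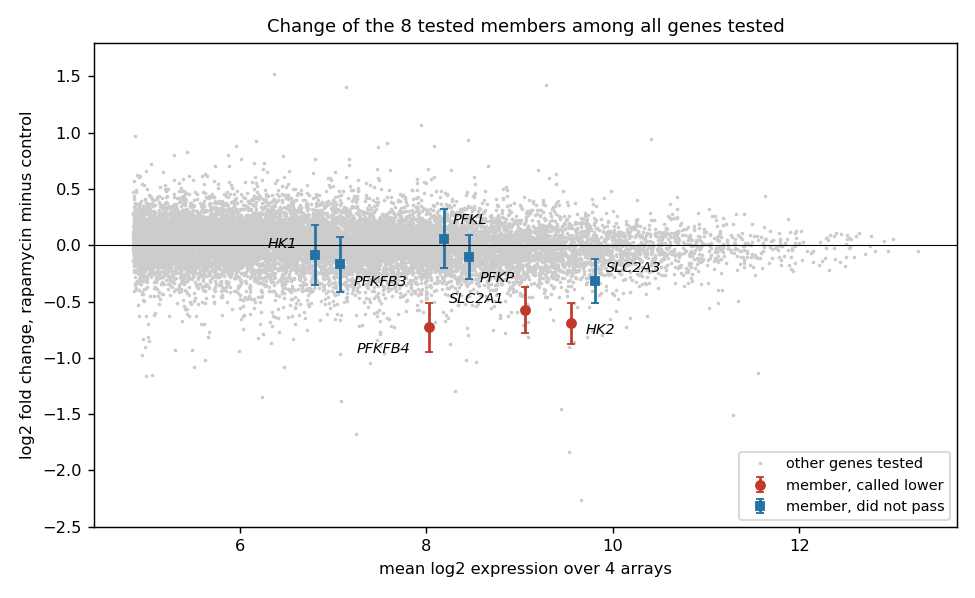
Log2 fold change (rapamycin minus control) against mean log2 expression for the 14635 genes tested in grey, with the 8 tested members and their 95% intervals in colour. The called members, SLC2A1 at -0.58, HK2 at -0.69 and PFKFB4 at -0.73, lie below most genes of like signal, and the other 5 lie between -0.31 and 0.06.

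The members can be set against each other within an array, where a shift common to the whole array cancels. Log2 levels of different probe sets do not rank the genes by abundance, but their difference can be followed across arrays. HK2 minus HK1 was 2.40 and 2.49 log2 units on the rapamycin arrays, against 2.91 and 3.19 on the control arrays. The shift between the group means was -0.60 on the log2 scale (SE 0.15), and ran from -0.74 to -0.47 with 1 array left out. PFKFB4 minus PFKFB3 was 0.59 and 0.74 with rapamycin, against 1.24 and 1.22 in control cells. The shift of -0.56 (SE 0.08) was several times the spread between arrays. SLC2A1 minus SLC2A3 was -0.89 and -0.87 with rapamycin, against -0.64 and -0.60 in control cells. The shift of -0.26 (SE 0.02) was small but even, with both genes reading lower in rapamycin cells and SLC2A1 by more. The SE of a shift comes from 2 arrays per group alone, so it is itself imprecise. It does not compare with the SE of a single gene, for which the fit shares spread across all genes.

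PFKL minus PFKP shifted by 0.16 (SE 0.12), from values of -0.28 and -0.09 with rapamycin and -0.41 and -0.28 in control cells that all but touch. The pairs that include HK3 or PFKFB2 rest on a gene near background: the shifts were -0.82 for HK2 minus HK3, 0.22 for HK3 minus HK1, -0.85 for PFKFB4 minus PFKFB2 and -0.29 for PFKFB3 minus PFKFB2. In 7 of the 8 pairs the rapamycin and control arrays did not overlap, HK3 minus HK1 being the exception. Pairs that share a gene are not separate observations, and no share over other gene pairs was computed. Among single genes tested, both rapamycin arrays lay below both control arrays in 21.8% and above them in 24.9%. With 2 arrays against 2, an exact two-sided permutation test cannot go below p = 0.333. By this exact permutation test the 7 pairs had that value (p = 0.381 after adjustment over the 8 pairs), and HK3 minus HK1 had p = 0.667. This test therefore could not pass any pair whatever its size, and its p-values do not bear on whether isoforms responded alike. The shifts are given as values with their spread between arrays.

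**Figure D3:**
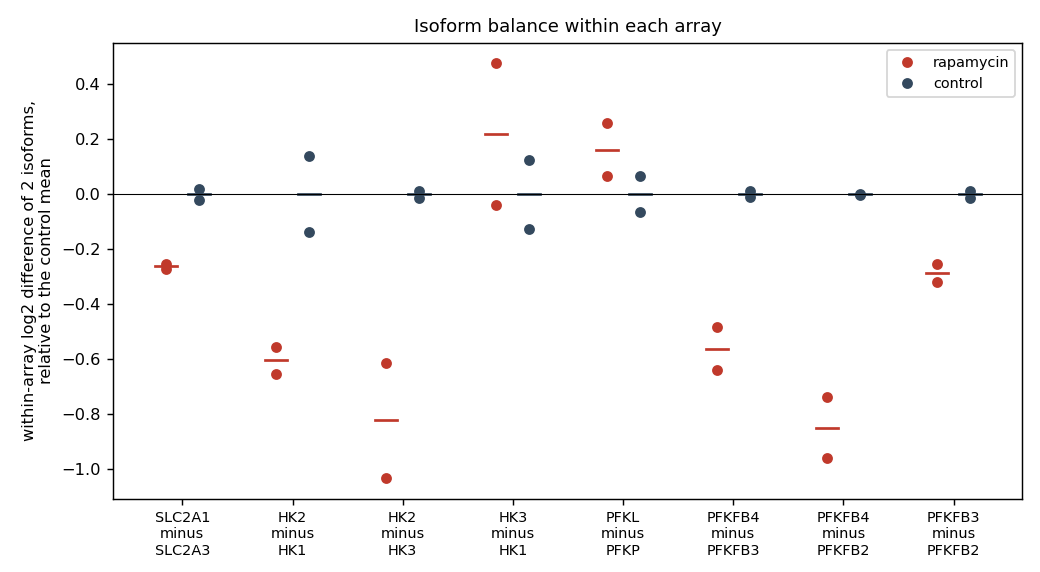
Within-array log2 difference between 2 isoforms, less the control mean of that pair, on the rapamycin arrays (left of each pair) and the control arrays (right), with lines at group means (n = 2 each). HK2 minus HK1 drops by 0.60 and PFKFB4 minus PFKFB3 by 0.56, while HK3 minus HK1 overlaps between groups.

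The calls differed in how far they rested on single arrays. HK2 passed without each array in turn, with log2 fold changes from -0.76 to -0.62. Without control replicate 2, PFKFB4 had an adjusted p of 0.0564 and SLC2A1 of 0.134, so the count of members that fell was 1. Without rapamycin replicate 1, SLC2A3 also passed (log2 fold change -0.42, adjusted p = 0.0076) and the count was 4. Of the 10 members 9 read higher on control replicate 2 than on control replicate 1, against 51.9% of all genes tested. HK1 was the member that did not. On rapamycin replicate 2, 4 of the 10 read higher than on rapamycin replicate 1, against 48.3% of all genes tested. The 10 include HK3 and PFKFB2, which lay below the filter, while the shares cover tested genes alone. Without the mean-variance trend in the variance moderation no member passed, with adjusted p-values of 0.0844 for HK2, 0.083 for PFKFB4 and 0.138 for SLC2A1, and 13 genes were called lower and 4 higher in all.

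**Figure D4:**
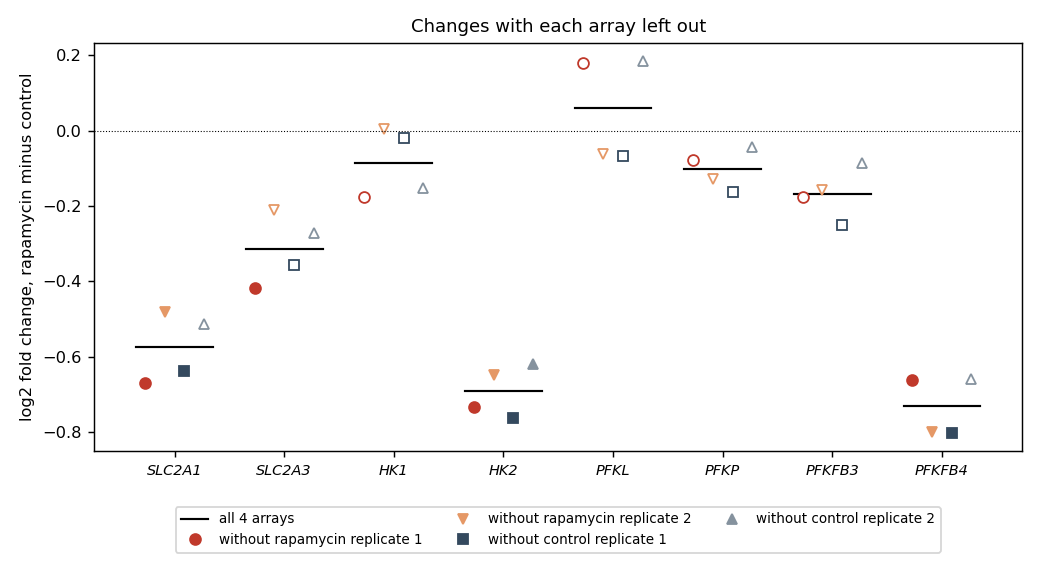
Log2 fold change (rapamycin minus control) of the 8 tested members with each array left out in turn (symbols) and with all 4 arrays (black line); filled symbols passed at an adjusted p under 0.05 and open ones did not. HK2 is filled throughout, between -0.76 and -0.62, PFKFB4 and SLC2A1 are open without control replicate 2, and PFKL and HK1 lie around 0.

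Other genes of the pathway were read from textbook lists. Of 14 measured relatives of the members (further SLC2A transporters, HKDC1, PFKM and PFKFB1), 7 lay above the filter, and 0 passed in either direction (median log2 fold change 0.10). The largest of these changes were 0.25 for SLC2A6, a lysosomal transporter of macrophages (adjusted p = 0.401), and 0.19 for the intracellular SLC2A8 (adjusted p = 0.619). Of the genes that oppose or neighbour the opening steps, 0 of 6 tested passed in either direction (median 0.03). G6PC3, a phosphatase that releases glucose from glucose 6-phosphate, stood at 0.12, and ADPGK, an ADP-dependent glucokinase, at 0.07.

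In lower glycolysis 2 of 12 tested genes fell, 0 rose and the median was -0.15. LDHA, which makes lactate from pyruvate, read 7.90 and 7.77 log2 units with rapamycin, against 8.32 and 8.37 in control cells (1.42-fold lower, adjusted p = 0.0378). ALDOC, an aldolase, read 8.03 and 8.16 with rapamycin, against 8.58 and 8.60 in control cells (1.41-fold lower, adjusted p = 0.0365). Neither LDHA nor ALDOC passed without either control array. Among regulators of these genes 2 of 11 tested rose and 0 fell (median 0.05). TXNIP, an arrestin-like protein that promotes removal of GLUT1 from the cell surface, read 10.70 and 11.06 with rapamycin and 9.80 and 10.07 in control cells (1.93-fold higher, adjusted p = 0.00913). ARRDC4, a relative of TXNIP that also restrains glucose uptake, read 6.58 and 6.68 with rapamycin and 5.91 and 5.88 in control cells (1.66-fold higher, adjusted p = 0.0247). ARRDC4 did not pass without control replicate 2 (adjusted p = 0.0745) or with no filter (adjusted p = 0.0615), where TXNIP did, and neither passed without the mean-variance trend. MLXIP (MondoA), the glucose-sensing factor that drives both, stood at 0.17 (adjusted p = 0.435).

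HIF1A stood at -0.24 (adjusted p = 0.257), and the oxygen sensor EGLN1, itself a HIF1 target, at -0.36 (adjusted p = 0.059). Of the other regulators, MYC stood at 0.15, VHL at 0.06, MLXIPL at 0.05, MLX at -0.0034, ARNT at -0.15 and EPAS1 at -0.10. None of these passed. EGLN3 lay below the filter and was not tested (log2 fold change 0.007). MLXIP and the regulators named in this paragraph were chosen for mention after their values were seen. Partners that dock hexokinase on mitochondria or modify the PFKFB enzymes and transporters gave 0 of 11 tested (median -0.03). The largest changes there were 0.26 for VDAC1, a mitochondrial docking site of hexokinase (adjusted p = 0.375), and 0.24 for the kinase AKT1 (adjusted p = 0.528). The 7 housekeeping genes tested gave 0 calls, with a median of 0.00 and a range from -0.13 for B2M to 0.16 for GUSB.

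**Figure D5:**
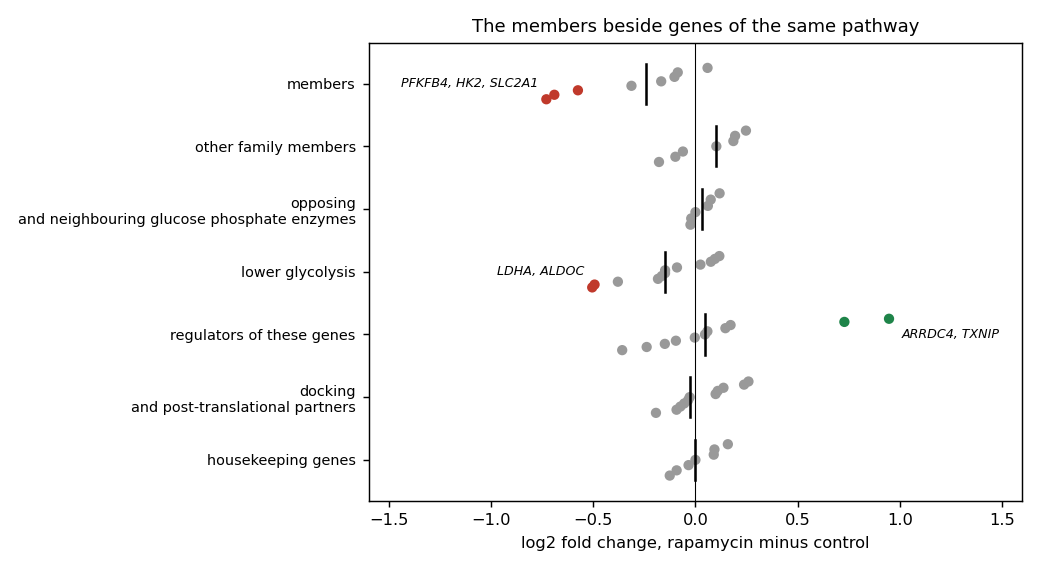
Log2 fold changes (rapamycin minus control) of the 8 tested members, at the top, and of the tested genes of 5 pathway lists and a housekeeping list; red marks genes called lower, green genes called higher, grey genes that did not pass, and black bars list medians. SLC2A1, HK2, PFKFB4, LDHA and ALDOC are red, TXNIP and ARRDC4 are green, and the member median lies at -0.24.

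The genes whose 4 array values, centred on their mean, lay nearest to those of a called member were listed for each. For SLC2A1 they were MYO10, TMEM263 and ABHD4, at Euclidean distances from 0.04 to 0.06 log2 units. For HK2 they were MXD1, CD70 and CSRP3, each at 0.07 to 0.08. For PFKFB4 they were S100P at 0.04, and RUNX3 and CTSG at 0.08. Likeness over 4 arrays is dominated by the difference between the groups. Of the 9 genes 7 were called lower, beside 0.861% of all genes tested, and TMEM263 (adjusted p = 0.0755) and CSRP3 (adjusted p = 0.0625) did not pass. The genes were picked for nearness to members called lower, so this count largely follows from that choice.

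The arrays had medians from 5.38 to 5.45 log2 units. Of 10 measured myeloid markers 9 lay above the filter, among them FLT3, SPI1 and LYZ, and the monocyte marker CD14 lay below it. Of 11 measured markers of other cell types 6 lay below the filter (CD3E, MS4A1, EPCAM, HBB, ALB and PPBP), and NCAM1, PECAM1, HBA1, COL1A1 and GFAP lay above it. Of both marker lists 0 genes passed the test. The summed linear signal of the markers of other cell types ran from 762 to 838 on the rapamycin arrays and from 877 to 916 on the control arrays. NCAM1, at 8.88 and 8.57 log2 units with rapamycin and 9.05 and 9.05 in control cells, was the largest part of it. The part of these markers in the results was not tested. In RNA from whole cultures, fewer cells expressing a gene and less RNA per cell cannot be told apart.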

How the data were processed

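Expression was measured on 2 rapamycin and 2 control arrays. The authors deposited normalized log2 values, each for 1 probe set on 1 array. Per the submitters' processing notes, the tools were RMA and Partek, with no version or role stated. That the scale is log2 follows from the range, 1.81 to 13.3. RMA makes array distributions alike, so a shift of the whole transcriptome would be removed. The genome build of the probe mapping is not given in the sources used here. Of 25582 probe sets, 24244 have a gene symbol in the platform annotation. Probe sets with a mean below the 40th percentile (4.86 log2 units) were left out, and the probe set with the highest mean stood for a gene. The 14635 genes left were fitted with limma 3.58.1 in R 4.3.3, with group as the only term and moderated variances (eBayes, with a trend on mean expression). P-values are two-sided and Benjamini-Hochberg adjusted over these genes. The fit had 2 residual degrees of freedom, to which moderation added 7.27, and a median 95% interval half-width of 0.27 log2 units. The number of arrays limits this precision. The code was tested on simulated data. Members, gene lists, pairs and the rule for named genes were chosen with earlier results of these data known. The rule names the members, list genes that were called (otherwise the 2 largest changes, with further list genes chosen after their values were seen) and the 3 nearest profiles of each called member. The 101 genes on the companion and marker lists include 11 not analysed here.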

Additional observations from a re-analysis of the deposited data

How the results depend on the processing

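The 3 member calls kept their direction under all 13 alternatives, and HK2 passed in 12 of them, PFKFB4 in 11 and SLC2A1 in 10. That direction could have changed only where the array values were rescaled. The other settings leave these fold changes as they are, or drop 1 array from groups that do not overlap for these 3 genes. Without the mean-variance trend 0 members fell, with 13 genes lower and 4 higher in all and 0 companion genes called in either direction. With no filter 2 members fell (SLC2A1 had an adjusted p of 0.0687), with 43 genes lower and 17 higher in all and 0 companion genes lower and 1 higher. Centring arrays on their medians gave 238 genes lower. The arrays share replicate numbers, but same-numbered arrays did not deviate together (correlation -0.03 over genes). With the replicate block 205 genes were lower and 116 higher in all, and the member calls were those of the fit without it. Leaving out 1 array at a time gave from 1 to 4 members lower, 47 to 857 genes lower and 29 to 443 higher in all, and 0 to 4 companion genes lower and 1 to 2 higher. The lowest counts came without control replicate 2 and the highest without rapamycin replicate 1. The cause was not tested. Uncalled values near 0 changed sign: with 1 array left out, PFKL ran from -0.066 to 0.18 (-0.062 without rapamycin replicate 2), HK1 from -0.18 to 0.0038, and the HK3 minus HK1 shift from -0.039 to 0.48. The other 7 isoform differences kept their sign under every alternative run, none of which tests them. No detection p-values came with the arrays, so HK3 and PFKFB2 cannot be told from background.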
